A study of Mus musculus with 6 samples.

Results

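The 7 genes described here encode secreted proteins that bridge phosphatidylserine on a membrane to a receptor on another cell, and the receptor tyrosine kinases of the TAM family. Mfge8, Edil3, Gas6 and Pros1 encode the bridging proteins, and Axl, Mertk and Tyro3 encode the receptors. The genes were chosen by name, selected on the known rise of Mfge8 between control and knockdown cells on these arrays, and each was to be read from the row of its symbol with the highest mean over the 6 arrays. Every symbol had 1 row, so all 7 genes were measured on 7 of the 21789 rows with 1 gene symbol, and no row had to be preferred to another. N2A cells, a mouse neuroblastoma line, were transiently transfected with a non-targeting vector (control, 3 arrays) or with a Pou3f3 knockdown construct (3 arrays). The time of RNA extraction was taken as 2.5 days after transfection, within the range of times that the study's methods give. The study's PCR measurement of Pou3f3 in this knockdown was made at the late end of that range. Control and knockdown cells were grown and transfected in the same way and differ in the short hairpin RNA that the vector carries. The study's methods call the arrays of a group biological replicates, and the labels do not describe how these were separated.

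Phosphatidylserine is kept on the inner face of the plasma membrane of healthy cells and becomes exposed when a cell dies, which marks it for uptake by phagocytes. Mfge8 and Edil3 bind the lipid through discoidin domains and engage alpha v integrins through an RGD motif, whereas Gas6 and Pros1 bind it through a vitamin K dependent Gla domain and activate the TAM receptors. In the nervous system these proteins are known from the clearance of dying cells and of membrane debris, and TAM signalling is also known to favour cell survival and to restrain innate immune responses.

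All values are log2 array intensities and all differences are knockdown minus control. Calling a row required both a limma adjusted p below 0.1 and a change of 1.3-fold or more, which is 0.379 on the log2 scale. Of the 21789 rows, 433 (1.99%) were called, 284 higher and 149 lower, and the median difference of all these rows was -0.03. This set of rows was settled on after calls under other sets had been seen, and the calls depend on it. Pou3f3, which encodes a POU domain transcription factor and is the target of the construct, had control values of 8.37, 8.30 and 8.47 and knockdown values of 8.20, 8.09 and 8.35. It was lower in each pair of like number, but the groups overlapped and the difference of -0.16 ± 0.08 (SE) was not called (limma adjusted p = 0.303, or 0.0880 with the replicate number as a block). By quantitative PCR, a measurement apart from these arrays, the study reports a reduced level of Pou3f3 transcript in knockdown cells.

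Knockdown cells had a 2.12-fold higher level of Mfge8 and a lower level of Gas6, at 0.741 of the control. The other bridging genes, Edil3 and Pros1, and the receptor genes Axl, Mertk and Tyro3 were not called. Of the 7 genes, 2 were called, Mfge8 and Gas6, against 1.99% of all rows with 1 symbol. The groups of 3 arrays did not overlap for 3 of the 7 genes, against 26.0% of all rows with 1 symbol. Because this contrast chose the family, the counts and the p-values below describe its members and are no independent support for a change of the family.

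Mfge8 (milk fat globule EGF factor 8, also called lactadherin) is a secreted glycoprotein that tethers dying cells to integrins of phagocytes. In control cells its values were 8.74, 9.13 and 9.17 (replicates 1 to 3, an order kept throughout), and knockdown cells had 9.85, 10.21 and 10.24. Every knockdown array lay above every control array, with a gap of 0.678 between the highest control and the lowest knockdown value, and replicate 1 was the lowest array of either group. The means were 9.01 ± 0.24 and 10.10 ± 0.22 (SD, n = 3), a difference of 1.09 ± 0.14 (SE, limma adjusted p = 0.0133) with a 95% confidence interval of 0.78 to 1.39, or 1.72 to 2.62-fold. Pairs of like number differed by 1.11, 1.08 and 1.07, a narrower range than the 0.427 spanned by the control arrays. No row with 1 symbol had a larger rise, which places Mfge8 at rank 1 of 21789. Among the 1376 rows whose mean level lay within 0.25 of that of Mfge8, the median difference was 0.07 and 4.29% were called. The call did not hold when rows with several symbols or none were tested as well. The limma adjusted p was then 0.103 over all 35556 rows, and 0.124 with a variance filter over all rows, for which the study's cut-off was read as a quantile although its methods do not say what it is.

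Edil3 encodes a secreted paralogue of Mfge8 with the same order of EGF-like and discoidin domains, known from developing blood vessels and from the restraint of leukocyte adhesion. Its values were 5.91, 5.96 and 5.78 in control cells and 5.72, 5.70 and 5.72 in knockdown cells. All knockdown arrays lay below all control arrays, but only 0.060 separated the groups. The difference of -0.17 ± 0.07 (SE) was not called (limma adjusted p = 0.217, or 0.0976 with the replicate block, where it was still below the fold cut-off), and its 95% confidence interval of -0.33 to -0.02 does not reach a 1.3-fold change. Of the 990 rows within 0.25 of its level, 0.505% were called.

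**Figure D1:**
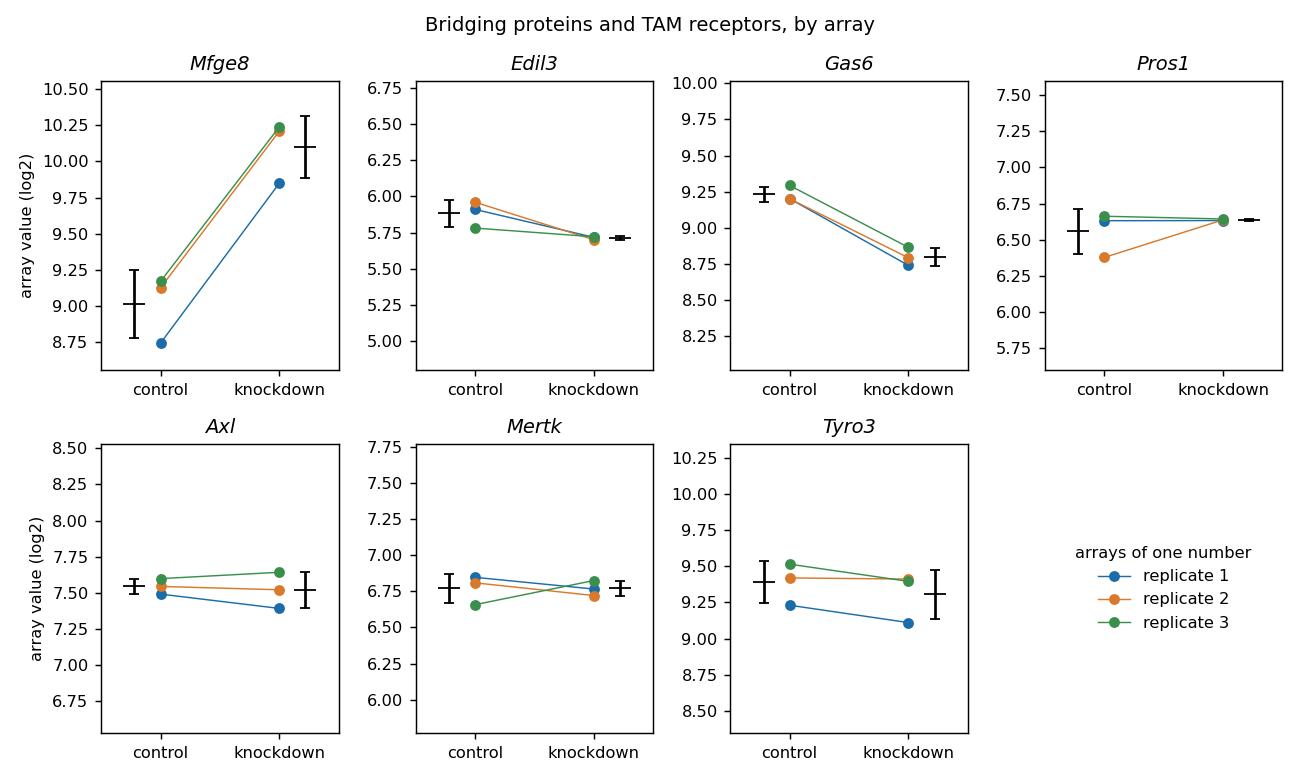
Array values (log2, vertical axes, each spanning 2 log2 units) of the 7 genes in both groups. Each point is 1 array, coloured lines join arrays of the same replicate number, and black bars are means ± SD (n = 3). The groups are apart for Mfge8, Edil3 and Gas6 and overlap for Pros1, Axl, Mertk and Tyro3.

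Gas6 (growth arrest specific 6) is the ligand shared by all 3 TAM receptors and is known as a survival factor of neurons and glia. Its values were 9.20, 9.20 and 9.29 in control cells and 8.74, 8.79 and 8.87 in knockdown cells. The groups were 0.336 apart, and the values within each group differed by at most 0.125. The means of 9.23 ± 0.05 and 8.80 ± 0.06 (SD, n = 3) give a difference of -0.43 ± 0.07 (SE, limma adjusted p = 0.0192), with a 95% confidence interval of -0.58 to -0.28, or 0.667 to 0.822 of the control level. All 3 pairs of like number showed this direction, with differences of -0.46, -0.41 and -0.43. The median difference of the 1137 rows within 0.25 of the level of Gas6 was 0.04, of which 4.40% were called. As for Mfge8, the call did not hold over all 35556 rows (limma adjusted p = 0.114) or with that filter over all rows (limma adjusted p = 0.282).

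Pros1 encodes protein S, a plasma anticoagulant that is also a ligand of Mertk and Tyro3. Its values were 6.63, 6.38 and 6.66 in control cells and 6.63, 6.64 and 6.64 in knockdown cells. The knockdown values lay inside the range of the control values, of which that of replicate 2 was the lowest. The difference of 0.08 ± 0.08 (SE, limma adjusted p = 0.606) had a 95% confidence interval of -0.11 to 0.27, which does not reach a 1.3-fold change.

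The promoters of the called genes are shown because Mfge8 and Gas6 differed in opposite directions. The 250 bases before the start of each gene are given as the RefSeq table of promoters holds them (GRCm38.p6), read 5′ to 3′ on the strand of the gene, with the GC box GGGCGG, on either strand, in capitals. Both genes lie on the minus strand, Mfge8 at chr7:79149061-79149310 and Gas6 at chr8:13494536-13494785.
Mfge8: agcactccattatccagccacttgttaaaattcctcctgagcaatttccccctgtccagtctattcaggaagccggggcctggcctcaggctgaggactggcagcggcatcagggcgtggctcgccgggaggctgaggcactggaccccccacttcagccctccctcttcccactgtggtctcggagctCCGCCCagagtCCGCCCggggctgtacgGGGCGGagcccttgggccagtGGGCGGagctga
Gas6: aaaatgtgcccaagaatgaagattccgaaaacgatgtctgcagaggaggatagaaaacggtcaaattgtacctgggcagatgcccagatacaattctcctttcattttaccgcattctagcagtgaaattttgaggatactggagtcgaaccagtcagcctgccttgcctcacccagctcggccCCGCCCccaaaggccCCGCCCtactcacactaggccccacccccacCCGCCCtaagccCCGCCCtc
Each window holds 4 GC boxes, all within 66 bases of the start, with no overlap between them. A GC box was found in 32.7% of the 32851 windows of this length in the table. The octamer ATGCAAAT, the classical recognition sequence of POU proteins, was searched on both strands and is in neither window, and it was found in 1.60% of all windows. CG dinucleotides numbered 12 before Mfge8 and 10 before Gas6, against a median of 6. Of the other genes, Pros1 had 5 GC boxes and 15 CG dinucleotides, Tyro3 3 and 24, Mertk 3 and 7 and Axl 1 and 5. A match of letters is a description of the sequence, and its absence covers only this window.

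None of the TAM receptor genes was called. Tyro3, the receptor known mainly from neurons, had values of 9.23, 9.42 and 9.52 in control cells and 9.11, 9.41 and 9.40 in knockdown cells. The groups overlapped, with replicate 1 the lowest array of either group, and the difference was -0.08 ± 0.10 (SE, limma adjusted p = 0.674). Axl, a receptor selective for Gas6, had values of 7.49, 7.54 and 7.60 in control cells and 7.39, 7.52 and 7.64 in knockdown cells, so that the knockdown range enclosed the control range. Its difference was -0.03 ± 0.08 (SE, limma adjusted p = 0.871). Mertk, the receptor known from the uptake of photoreceptor outer segments and of dying cells, had values of 6.85, 6.81 and 6.66 in control cells and 6.76, 6.72 and 6.82 in knockdown cells. Its means coincided, with a difference of -0.0007 ± 0.07 (SE, limma adjusted p = 0.997). The 95% confidence intervals were -0.32 to 0.15 for Tyro3, -0.20 to 0.15 for Axl and -0.17 to 0.16 for Mertk, none of which reaches a 1.3-fold change in either direction. Among the 7 genes this holds for 5, the exceptions being Mfge8 and Gas6. Detection above background was not analysed, so whether the genes with low values (Edil3, Pros1, Mertk and Axl) were expressed at all was not tested.

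**Figure D2:**
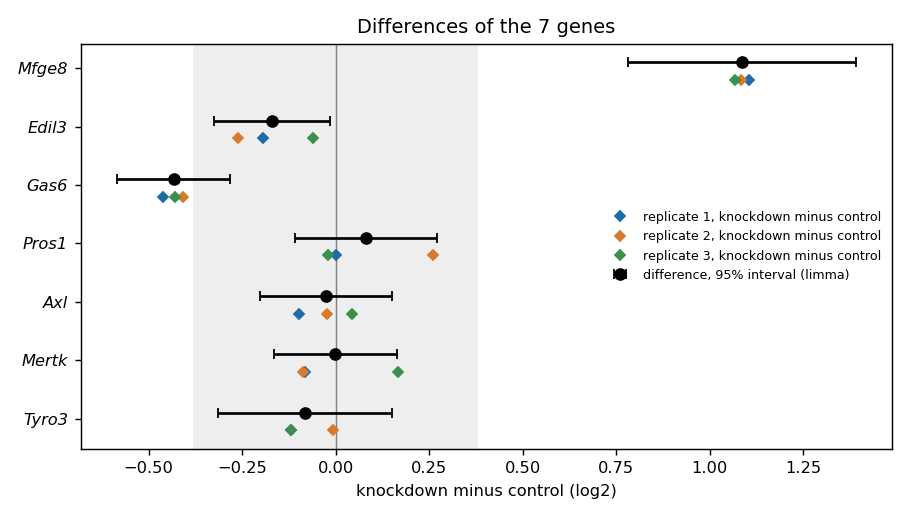
Difference between knockdown and control (log2, horizontal axis) for each of the 7 genes. Black points and bars are limma differences with 95% confidence intervals, coloured diamonds are differences between arrays of the same replicate number, and the grey band spans less than 1.3-fold. The intervals of Edil3, Pros1, Axl, Mertk and Tyro3 lie inside the band, whereas that of Mfge8 lies outside and that of Gas6 crosses its edge.

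To compare genes of like structure, 3 within-array differences of log2 values were formed. Mfge8 minus Edil3 was 2.83, 3.17 and 3.39 in control cells and 4.13, 4.51 and 4.52 in knockdown cells, a shift of 1.26. Gas6 minus Pros1 was 2.57, 2.82 and 2.63 in control cells and 2.11, 2.15 and 2.22 in knockdown cells, a shift of -0.51. Within each pair of paralogues the shift came mainly from the called gene. Mfge8 minus Gas6 was -0.46, -0.08 and -0.12 in control cells and 1.11, 1.42 and 1.37 in knockdown cells, a shift of 1.52. The groups were apart in each contrast. An exact two-sided permutation test gave p = 0.1 for each (0.1 after Benjamini-Hochberg adjustment over the 3), the smallest p that 3 arrays against 3 allow, and the contrasts rest on the values that chose the family.

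Other genes were sorted into 11 lists, which together name 98 genes, of which 94 had a row with 1 symbol. Some lists hold genes of phosphatidylserine exposure, recognition and uptake, and others hold genes related to the 7 only by a protein domain, by vitamin K dependent carboxylation or by position in the genome. Of the 94 genes, 1 was called higher and 2 lower (3.19%, against 1.99% of all rows), and all 3 belong to the carboxylation and discoidin domain lists. The median difference of the 94 was -0.08, where that of all rows was -0.03, and 72.3% lay below 0, where 57.5% of all rows did. The integrin subunit genes Itgav, Itgb3 and Itgb5, whose products receive Mfge8 and Edil3, were not called, and Itgav had the largest difference of these, -0.21 ± 0.06 (SE, limma adjusted p = 0.129). None of 13 genes of other phosphatidylserine receptors was called, of which 10 lay below 0. Lrp1, which encodes a large endocytic receptor, differed by -0.35 ± 0.11 (SE, limma adjusted p = 0.136). None of 8 scramblase genes, which expose the lipid, and none of 6 flippase genes, which return it to the inner face, was called. The largest differences there were 0.26 for Plscr1 and -0.19 for Atp8a1.

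The vitamin K dependent carboxylation on which Gas6 and Pros1 rely was represented by 4 genes. Ggcx, the carboxylase, and Vkorc1, the epoxide reductase, differed by 0.00 and -0.09 and were not called. Nqo1, a quinone reductase, rose. Its values were 8.63, 8.61 and 8.93 in control cells and 9.07, 9.19 and 9.20 in knockdown cells, with the groups apart. The difference of 0.43 ± 0.09 (SE, limma adjusted p = 0.0618) was not called without control replicate 2 (adjusted p = 0.225), knockdown replicate 2 (0.205) or knockdown replicate 3 (0.131). None of 11 genes of other Gla domain proteins was called, and Prrg1 differed most, by -0.22 ± 0.07 (SE, limma adjusted p = 0.165). Of the 11, 10 lay below 0, where 57.5% of all rows did. The median difference of this list was -0.11, at a median control level of 7.28. Rows within 0.25 of the mean levels of Axl and Pros1, which are also low, had median differences of -0.10 and -0.07.

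Of 14 measured genes whose proteins carry a discoidin domain like that of Mfge8, 2 were called lower and none higher. Of all rows, 1.99% were called in either direction. The median of the 14 was -0.11, and 13 lay below 0, where 57.5% of all rows did. Nrp1, a co-receptor of semaphorins and VEGF, had values of 12.07, 12.09 and 11.95 in control cells and 11.45, 11.66 and 11.47 in knockdown cells. It fell by 0.51 ± 0.08 (SE, limma adjusted p = 0.0192). Aebp1, a secreted carboxypeptidase-like protein that binds collagen, had values of 10.94, 10.96 and 11.03 in control cells and 10.44, 10.56 and 10.53 in knockdown cells and fell by 0.46 ± 0.07 (SE, limma adjusted p = 0.0169). The groups were apart for both genes, and neither was called over all 35556 rows (limma adjusted p = 0.120 for Nrp1 and 0.103 for Aebp1).

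The remaining lists held no called gene. Among 5 genes of other TAM ligands and of the proteases that shed the receptors, Tub differed most, by -0.23 ± 0.06 (SE, limma adjusted p = 0.121), and the protease genes Adam10 and Adam17 differed by 0.20 and -0.07. Among 13 genes of the engulfment machinery, which acts inside the phagocyte, the largest difference was -0.25 ± 0.09 (SE) for the lipid transporter gene Abca1 (limma adjusted p = 0.186), and the median was -0.03. Among 9 genes of signals displayed or released by dying cells, Anxa5, whose product binds phosphatidylserine, differed by 0.26 ± 0.07 (SE, limma adjusted p = 0.109), and the groups were apart for 6, where 26.0% of all rows had groups apart. Among 8 Hapln and lectican genes, several of which lie beside Mfge8 or Edil3 in the genome, all lay below 0, where 57.5% of all rows did. Ncan differed most, by -0.33 ± 0.07 (SE). Its limma adjusted p was 0.0572, with a difference under the fold cut-off, and it was called after cyclic loess (-0.38, adjusted p = 0.0480) and without knockdown replicate 3 (-0.38, adjusted p = 0.0664).

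**Figure D3:**
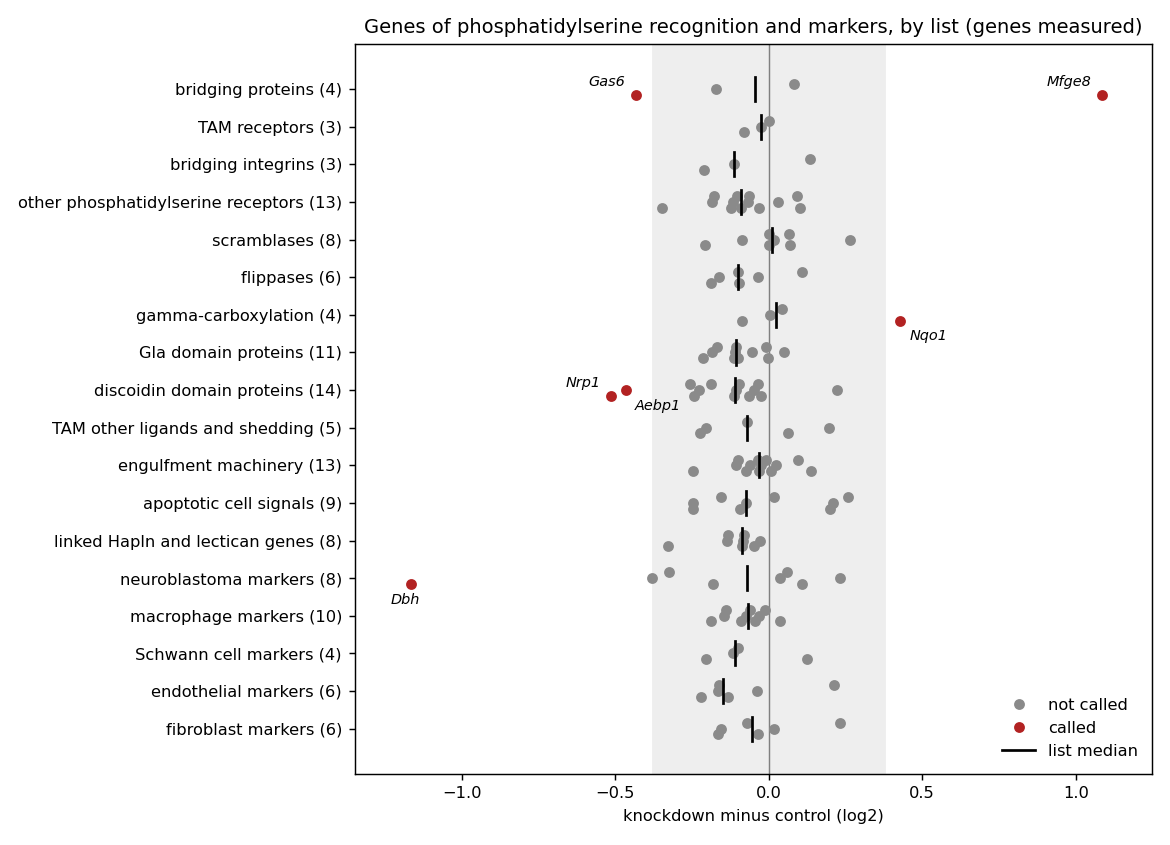
Difference between knockdown and control (log2, horizontal axis) of each measured gene, by list, with the number of genes measured in parentheses. Red points are called genes, grey points genes not called, black bars list medians, and the grey band spans less than 1.3-fold. Called genes are Mfge8 and Nqo1 on the right and Gas6, Nrp1, Aebp1 and Dbh on the left.

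None of the genes beside Mfge8 or Gas6 was called. In the RefSeq gene order of chromosome 7, Acan and Hapln3 precede Mfge8 and Abhd2 and Rlbp1 follow it, counting protein-coding genes with a row. They differed by -0.13 ± 0.07, -0.14 ± 0.07, -0.21 ± 0.07 and -0.18 ± 0.08 (SE), with limma adjusted p from 0.151 to 0.306. All 4 lay on the other side of 0 from Mfge8, where 57.5% of all rows lay below 0. Beside Gas6 on chromosome 8, Grk1, Tmem255b and 1700029H14Rik differed by -0.27 ± 0.09, -0.12 ± 0.07 and -0.15 ± 0.07 (SE). Rasa3, which encodes a Ras GTPase activating protein, differed by 0.28 ± 0.07 (SE, limma adjusted p = 0.0786), which is under the fold cut-off.

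**Figure D4:**
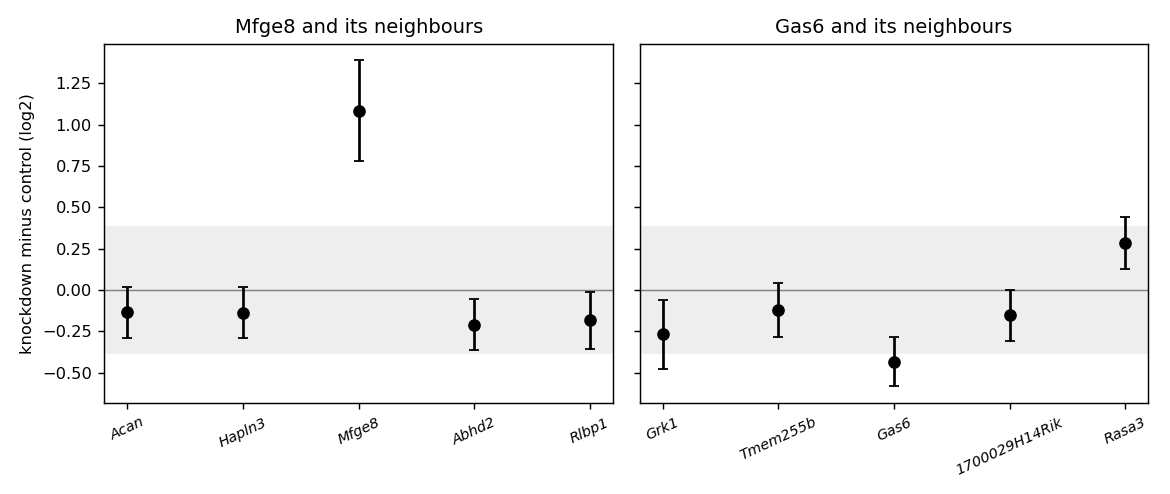
Difference between knockdown and control (log2, vertical axis) of Mfge8 (left) and Gas6 (right) and of the 2 nearest protein-coding genes with a row on each side, in RefSeq gene order. Points and bars are limma differences with 95% confidence intervals, and the grey band spans less than 1.3-fold. Mfge8 stands at 1.09 with all 4 neighbours below 0, and Gas6 at -0.43 with Rasa3 at 0.28.

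To find the transcripts with the most similar course over the 6 arrays, deviations from each gene's own control mean were compared by their root mean square difference among 19937 other symbols. Nearest to Mfge8 were the interferon-inducible chemokine gene Cxcl10 (0.222), the snoRNA host gene Snhg5 (0.258) and the histone gene H2ac4 (0.276). Cxcl10 was at 7.65, 7.88 and 8.08 in control cells and 8.80, 9.01 and 8.58 in knockdown cells. H2ac4 resembled Mfge8 in its low values of replicate 1 (8.26 in control and 9.04 in knockdown cells), and its difference of 0.76 was not called (limma adjusted p = 0.123). It was called with the replicate block (0.000544), with the variance filter over rows with 1 symbol (0.000483) and without knockdown replicate 1 (0.0521). Nearest to Gas6, at smaller distances, were the interferon gamma receptor gene Ifngr2 (0.0181), Rbpjl (0.0281) and the prokineticin receptor gene Prokr2 (0.0364). They fell by 0.43, 0.42 and 0.39. The distance includes the size of the difference between groups, and no row with 1 symbol rose more than Mfge8. Distances from Mfge8 and from Gas6 are therefore not comparable as a likeness of course. Without knockdown replicate 2, Ifngr2 and Prokr2 were not called (limma adjusted p = 0.105 and 0.107), and Prokr2 was also lost without control replicate 3 (0.114) and, by the fold cut-off, without knockdown replicate 1 (a difference of -0.37) and after cyclic loess (-0.34). Over all 35556 rows the calls of Cxcl10, Ifngr2, Rbpjl and Prokr2 were lost, with limma adjusted p between 0.105 and 0.121, whereas Snhg5 was still called (0.0617).

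Since Mfge8 and the TAM receptors are also known from phagocytes, glia, vessels and connective tissue, markers of such cells were examined beside them. Of 10 macrophage markers, none was called, 9 lay below 0, and control levels ran from 6.09 to 7.46. Their summed linear intensity was 1090 to 1160 in control and 1040 to 1080 in knockdown arrays. None of 4 Schwann cell, 6 endothelial and 6 fibroblast markers was called, and their sums were 1080 to 1170, 1540 to 1650 and 1360 to 1400 in control arrays and 1060 to 1100, 1470 to 1620 and 1290 to 1350 in knockdown arrays. The largest differences in the 4 lists were those of Cd14 (-0.19), Sox10 (-0.21), Vwf (-0.22) and Pdgfra (0.23). Of 8 neuroblastoma markers, Dbh, which encodes the noradrenaline-forming enzyme, was called lower (-1.17 ± 0.12 SE, limma adjusted p = 0.00471) and none higher, with Th called as well in the replicate block (limma adjusted p = 0.0420, or 0.133 without it), and control levels ran from 8.03 to 12.55. Of the 8, 4 lay above 0 and 4 below. Their summed intensity was 20300 to 23600 in control and 17900 to 19100 in knockdown arrays, with the groups apart. This sum includes Dbh, whose mean was 12.39 in control and 11.22 in knockdown cells, and no sum was formed without Dbh. The separation of the sums is therefore no result about the other markers. The part of these markers in the differences of the 7 genes was not tested. Among the 4 lists of other cells, the sums of the Schwann cell and endothelial markers overlapped between the groups. Those of the macrophage and fibroblast markers were lower in every knockdown array than in every control array. Any part of these cells in the differences of the 7 genes was not tested. In RNA from whole cultures, fewer cells that make a transcript and less RNA per cell cannot be told apart.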

How the data were processed

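Transcript levels of N2A cells were measured on 6 Affymetrix Mouse Gene ST arrays. The authors applied RMA background correction and quantile normalisation and summarised probes per gene. The deposited table holds log2 values (3.16 to 14.89, array medians 7.90 to 8.01). The submitters' processing notes name RMA and limma but no version. Quantile normalisation hides a change shared by most transcripts, and 3 arrays a group limit the precision.

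Gene symbols came from the platform's annotation. Of 35556 rows, 21789 had 1 symbol, 1621 had several and 12146 were not listed. Symbols were updated through the Entrez identifier, found for 21698 rows, in a RefSeq table of GRCm38.p6. In R 4.3.3 with limma 3.58.1, lmFit and eBayes were run on the 21789 rows, with Benjamini-Hochberg adjustment over all of them. This departs from the study's methods, which filter on variance first. Their cut-off is not defined there, and read as a quantile it would have removed 4 of the 7 genes. An earlier account of these data settled on this set of rows after it had seen the calls of 3 tests, namely 12 with the filter over all rows, 542 with the filter over rows with 1 symbol and 433 as used here. Lists used the row with the highest mean per symbol and were described without a set test. The genes named are the 7 members, called genes of each list (or the one with the largest difference), 2 neighbours on each side of Mfge8 and Gas6, and 3 genes nearest in course to each of them. Adam10, Adam17, Ggcx, Vkorc1 and Th were named in addition after their values were seen. The members and lists were chosen with earlier results of these data known.

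Replicate numbers were taken to pair the arrays in the replicate block and in the differences between arrays of like number. The main fit used no pairing, and the labels state none. Deviations from the group means correlated between arrays of the same number over the 21789 rows (0.638, 0.307 and 0.289 for numbers 1 to 3). Arrays of unlike number were not compared, so these correlations do not show that like numbers belong together. Alternatives were the replicate block, 4 choices of rows, median centring, cyclic loess, other variance models and thresholds, the mean of all rows of a symbol, and leaving out each array.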

Additional observations from a re-analysis of the deposited data

How the results depend on the processing

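Mfge8 and Gas6 kept their direction in every alternative run and stayed called in all but those that also tested rows with several symbols or none. With the variance filter, read as a quantile, over all rows (17778 rows), 12 rows were called, 2 higher and 10 lower, with 0 of the 7 genes and 0 pathway genes among them. There the limma adjusted p was 0.124 for Mfge8 (difference 1.086) and 0.282 for Gas6 (-0.433). Over all 35556 rows without a filter, 28 rows were called, 10 higher and 18 lower, again with 0 members and 0 pathway genes. There the adjusted p was 0.103 for Mfge8 (1.086) and 0.114 for Gas6 (-0.433). The cause of the lost calls was not tested. The variance filter left 3 of the 7 genes, dropping Edil3, Pros1, Axl and Mertk, and the filter on low levels left 4, so these have no value there.

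With the replicate number as a block, 544 rows were called instead of 433, with 2 members and 3 pathway genes as before, and the limma adjusted p was 6.8e-05 for Mfge8 and 0.0028 for Gas6. Beside Th and H2ac4 it changed no call of a named gene. At an adjusted p under 0.05, 173 rows were called higher. Without the fold cut-off, 969 rows were called (579 higher, 390 lower), with 6 pathway genes. Median centring moved the median of all differences by 0.00426. Signs of uncalled genes near 0 turned. Mertk was at 0.004 under median centring and 0.074 after cyclic loess, where Axl was at 0.049. After cyclic loess 425 rows were called, 232 higher and 193 lower, with 4 pathway genes. Most list medians moved towards 0 there, among them those of the Gla domain proteins (-0.0296), apoptotic cell signals (-0.0005) and macrophage markers (-0.0052). Medians moved away from 0 for the integrins (-0.1332), other TAM ligands and shedding (-0.1112) and neuroblastoma markers (-0.1008). Those of the scramblases (-0.0218) and of gamma-carboxylation (-0.0111) changed sign.

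On leaving out 1 array, called rows ran from 147 (without knockdown replicate 2) to 611, with 161 without control replicate 2 and 219 without control replicate 3. Of these 67 to 392 were higher and 80 to 219 lower. Members called stayed at 2 and pathway genes at 2 to 3. Differences ran from 0.951 to 1.211 for Mfge8, -0.466 to -0.402 for Gas6, -0.222 to -0.133 for Edil3, -0.009 to 0.133 for Pros1, -0.088 to 0.037 for Axl, -0.057 to 0.037 for Mertk and -0.161 to 0.016 for Tyro3. Among genes that were not called, Plscr1 ran from 0.159 to 0.339, Atp8a1 from -0.266 to -0.111 and Abca1 from -0.3 to -0.147.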
